A study of Mus musculus with 10 samples.

Results

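The genes described here encode 4 muscarinic acetylcholine receptors (Chrm1, Chrm2, Chrm3 and Chrm4), 3 subunits of nicotinic acetylcholine receptors (Chrna4, Chrna7 and Chrnb2) and acetylcholinesterase (Ache). They were taken by gene symbol from a table of 52636 genes, and each of the 8 symbols matched 1 record. The hippocampal RNA came from 3-month-old C57BL/6 mice, 5 libraries from Tshr-/- mice, which lack the receptor for thyroid-stimulating hormone, and 5 libraries from wild-type mice. The study is titled as one on spatial learning and memory, and genotype is its single comparison. The labels call the libraries biological replicates without saying whether each is 1 mouse. They give neither the deleted part of Tshr nor whether the mutants, which lack the main drive to thyroid hormone synthesis, received thyroid hormone.

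Acetylcholine reaches the hippocampus mainly along axons from the medial septum, so most of the transmitter is made by cells outside it. Receptor RNA measured here is that of cells in the dissected tissue. Muscarinic receptors are G protein-coupled: the products of Chrm1 and Chrm3 act through Gq and phospholipase C, and those of Chrm2 and Chrm4 act through Gi/o to lower cyclic AMP and open potassium channels. Nicotinic receptors are ion channels of 5 subunits, and in brain the most abundant forms combine Chrna4 with Chrnb2 or are built of Chrna7 alone. Acetylcholinesterase breaks the transmitter down in the synaptic cleft.

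All 8 genes were expressed, and none of them passed the test for a difference between Tshr-/- and wild type. Levels are FPKM, read fragments per length of the gene and per size of the library, and are given as mean ± SD over the 5 libraries of a genotype. The test was limma on log2(FPKM + 0.1) over the 15471 genes with a mean of at least 0.5 FPKM, a filter that all 8 genes passed, and a gene was called at a Benjamini-Hochberg adjusted p below 0.05. Limma called 0 of the 8 genes, against 2 of all tested genes (0.0129%), which were Penk and Cyp26b1, both lower in Tshr-/-. That count of 2 was 0 to 9 when single libraries were left out. It was 0 on leaving out Tshr-/- library 2 or any one of wild-type libraries 2, 3 and 4, 1 without Tshr-/- library 1 or wild-type library 5, 4 without Tshr-/- library 3 and 9 without Tshr-/- library 5. An unadjusted p below 0.05 was reached by 0 of the 8 genes, against 2015 of all tested genes (13.0%), 4.65% higher and 8.38% lower in Tshr-/-. In none of the 8 did the Tshr-/- and wild-type libraries separate completely, as 414 of all tested genes did (2.68%). Limma voom, a test on read numbers rebuilt from the table, likewise called 0 of the 8 genes, and its unadjusted p was below 0.05 for Ache alone. Of the 8 genes, 4 had a higher and 4 a lower mean log2 value in Tshr-/-, with a median difference of 0.04 beside -0.01 over all tested genes.

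Levels of thalamus and habenula markers differed between libraries. As background, Chrm2, Chrna4 and Chrnb2 are known to be strongly expressed in thalamus. A list of 16 thalamus and habenula markers, none of them an acetylcholine receptor gene, summed to 44.4 to 294 FPKM in Tshr-/- and 25.1 to 134 FPKM in wild type. All 15 of its tested genes had a higher mean log2 value in Tshr-/-. Relative to the mean of all libraries, the list mean on the log2 scale was 1.13 and 2.32 in Tshr-/- libraries 1 and 2 and lay between -0.57 and -0.45 in Tshr-/- libraries 3, 4 and 5. In wild type it was 0.46 and 0.99 in libraries 2 and 5 and lay between -1.33 and -1.02 in libraries 1, 3 and 4. Tshr-/- libraries 1 and 2 and wild-type libraries 2 and 5 are called the 4 thalamus-rich libraries below. How many of all tested genes separate these 4 from the others was not counted. Of single markers, the transcription factor Tcf7l2 ranged from 0.684 to 14.5 FPKM in Tshr-/- and from 0.429 to 4.83 FPKM in wild type, and Zic1 from 2.58 to 31.1 FPKM in Tshr-/- and from 1.49 to 14.6 FPKM in wild type. General markers of forebrain neurons summed to 1948 to 2975 FPKM in Tshr-/- and 2583 to 3348 FPKM in wild type; these genes also mark neocortical neurons. The narrower lists of CA1 and dentate granule neurons summed to at least 241.5 and 87.8 FPKM in every Tshr-/- library and at least 351 and 140 FPKM in every wild-type library. The sum of the choroid plexus list was 2286 FPKM in Tshr-/- library 4, nearly all of it Ttr, and 5.25 to 91.9 FPKM in the other 9 libraries. Tshr itself had no read in 3 Tshr-/- libraries, a limit of 0.0169 to 0.0190 FPKM at 3 reads, and 0.0311 and 0.0120 FPKM in the other 2, against 0.0134 to 0.0594 FPKM in wild type.

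By level, the 8 genes ran from Chrm1 to Chrm2. Averaged over the 10 libraries, Chrm1 stood at 32.7 FPKM, above 89.8% of the tested genes, followed by Ache at 20.8, Chrm3 at 10.4, Chrnb2 at 9.63, Chrm4 at 7.72, Chrna7 at 7.10, Chrna4 at 6.98 and Chrm2 at 1.79 FPKM. For scale, the median over the tested genes was 5.05 FPKM. The upper and lower ends of this order were clear, with Chrm1 above Ache in 9 of 10 libraries, Ache above Chrm3 in 10 of 10 and Chrna4 above Chrm2 in 10 of 10. The middle was not. Chrm3 exceeded Chrnb2 in 7 libraries, Chrnb2 exceeded Chrm4 in 8, Chrm4 exceeded Chrna7 in 7 and Chrna7 exceeded Chrna4 in 5 of 10. The order also differed between genotypes there, since mean Chrna4 was above mean Chrna7 in Tshr-/- (8.58 and 7.0 FPKM) and below it in wild type (5.38 and 7.19 FPKM).

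**Figure D1:**
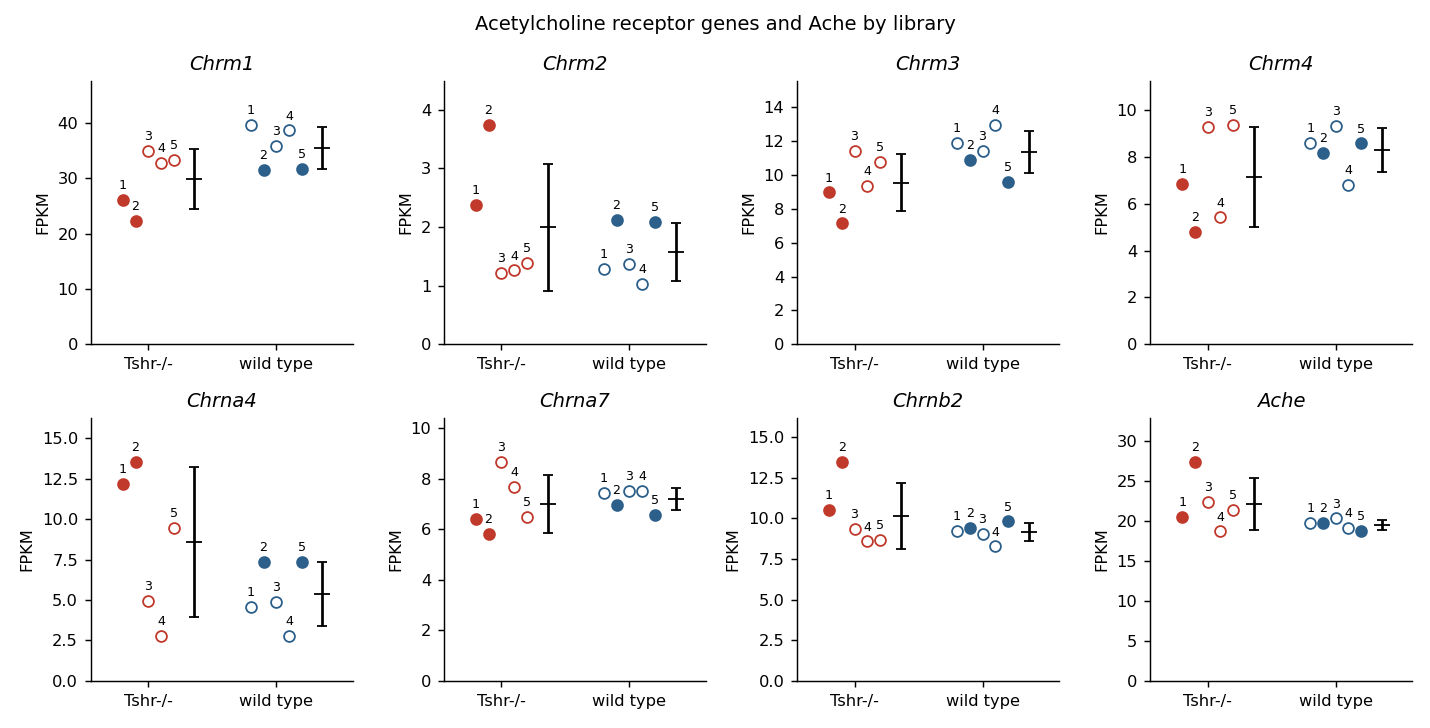
FPKM of each gene in the 10 libraries, with Tshr-/- in red at the left of each panel and wild type in blue at the right; numbers are library numbers, filled points are the 4 thalamus-rich libraries, and bars are mean ± SD (n = 5). Chrm2 and Chrnb2 have their 4 highest values and Chrm1 its 4 lowest values in the filled libraries, and the genotypes overlap in every panel. The share of all tested genes that separate the filled libraries in this way was not counted.

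Promoter windows are shown for 4 genes whose levels moved with the thalamic markers, Chrm2, Chrna4 and Chrnb2 upward and Chrm3 downward. They run from 250 bases before to 50 after the RefSeq start of each gene on GRCm38.p6 (the assembly behind mm10), on the gene's own strand: chr6:36387834-36388133 (plus) for Chrm2, chr2:181039128-181039427 (minus) for Chrna4, chr3:89764583-89764882 (minus) for Chrnb2 and chr13:10360754-10361053 (minus) for Chrm3. RefSeq windows were matched for 7 of the 8 genes, all but Chrm1. Capitals mark matches, on either strand, to the cyclic AMP response element core TGACG, the nuclear receptor half-site AGGTCA that thyroid hormone receptors also use, the TCF/LEF core CTTTGA, and the GC box GGGCGG.
Chrm2: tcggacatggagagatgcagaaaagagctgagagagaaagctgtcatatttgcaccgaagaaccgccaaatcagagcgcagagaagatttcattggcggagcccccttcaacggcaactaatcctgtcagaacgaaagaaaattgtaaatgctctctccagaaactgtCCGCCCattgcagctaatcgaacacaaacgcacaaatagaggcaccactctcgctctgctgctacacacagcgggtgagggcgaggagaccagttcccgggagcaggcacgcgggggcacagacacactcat
Chrna4: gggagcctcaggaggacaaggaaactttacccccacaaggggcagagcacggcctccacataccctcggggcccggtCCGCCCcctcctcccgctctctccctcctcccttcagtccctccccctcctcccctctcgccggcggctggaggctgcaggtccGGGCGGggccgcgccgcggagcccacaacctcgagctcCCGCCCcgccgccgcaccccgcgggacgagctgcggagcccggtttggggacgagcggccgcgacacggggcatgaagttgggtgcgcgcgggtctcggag
Chrnb2: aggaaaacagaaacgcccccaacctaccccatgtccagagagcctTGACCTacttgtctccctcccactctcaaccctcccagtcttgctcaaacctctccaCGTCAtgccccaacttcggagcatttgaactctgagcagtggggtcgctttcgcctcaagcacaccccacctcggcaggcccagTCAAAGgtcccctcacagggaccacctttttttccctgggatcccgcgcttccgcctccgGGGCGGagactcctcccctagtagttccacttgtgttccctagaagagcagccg
Chrm3: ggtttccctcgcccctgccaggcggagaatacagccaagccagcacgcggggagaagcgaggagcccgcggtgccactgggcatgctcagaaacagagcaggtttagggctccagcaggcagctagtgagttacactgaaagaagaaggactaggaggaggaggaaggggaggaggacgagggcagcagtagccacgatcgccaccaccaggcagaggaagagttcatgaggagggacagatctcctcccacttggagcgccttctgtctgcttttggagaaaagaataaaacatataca
The Chrnb2 window held 1 match to each of the 4 motifs, Chrna4 held 3 GC boxes, Chrm2 held 1 GC box, and Chrm3 held none of the 4. Chrna7 also fell with the thalamic markers, and its window, not printed here, held 1 GC box and none of the others. The windows of Chrm4 and Ache, also not printed, held 4 GC boxes each and none of the others. Over 32851 RefSeq windows of the same length, TGACG was found in 20.8%, AGGTCA in 16.3%, CTTTGA in 16.0% and GGGCGG in 35.7%. The full element TGACGTCA, which contains TGACG, was in 1.79% of windows and in 0 of the 7 matched here. GC content was 74.3% for Chrna4, 59.0% for Chrnb2, 57.3% for Chrm3 and 52.7% for Chrm2. The deposited record of Chrna4 begins 4369 bases upstream of the RefSeq start, while those of Chrm2 and Chrnb2 begin at it. A match describes these letters only and is not a binding site.

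Chrm1 (ENSMUSG00000032773, chromosome 19, 8663789 to 8683587 on the plus strand, mm10) encodes M1, the main muscarinic receptor of pyramidal and granule neurons. Tshr-/- libraries 1 to 5 had 26.1, 22.2, 35.0, 32.8 and 33.3 FPKM, and wild-type libraries 1 to 5 had 39.7, 31.6, 35.9, 38.7 and 31.7 FPKM. Tshr-/- libraries 1 and 2 lay below every wild-type library, and the other 3 lay inside the wild-type range. The means were 29.9 ± 5.48 FPKM in Tshr-/- and 35.5 ± 3.79 FPKM in wild type, a log2 difference of -0.26 ± 0.13 (SE, 95% interval -0.54 to 0.02, limma adjusted p = 0.415). The 4 lowest values of Chrm1 were those of the 4 thalamus-rich libraries.

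Chrm3 (ENSMUSG00000046159, chromosome 13, 9875486 to 10360847 on the minus strand) encodes M3, the second Gq-coupled receptor of this tissue. Its values in Tshr-/- libraries 1 to 5 were 8.97, 7.14, 11.4, 9.35 and 10.8 FPKM, against 11.9, 10.9, 11.4, 13.0 and 9.60 FPKM in wild-type libraries 1 to 5. Tshr-/- libraries 1, 2 and 4 lay below every wild-type library and library 2 was the lowest of all, while libraries 3 and 5 overlapped wild type. Chrm3 averaged 9.54 ± 1.68 FPKM in Tshr-/- and 11.3 ± 1.24 FPKM in wild type, a log2 difference of -0.26 ± 0.12 (SE, 95% interval -0.53 to 0.01, limma adjusted p = 0.402), the same size as for Chrm1. Of its 4 lowest values, 3 were from thalamus-rich libraries.

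Chrm4 (ENSMUSG00000040495, chromosome 2, 91927249 to 91928688 on the plus strand) encodes M4, a Gi/o-coupled receptor that acts on transmitter release. It had 6.84, 4.79, 9.29, 5.42 and 9.38 FPKM in Tshr-/- libraries 1 to 5 and 8.61, 8.18, 9.35, 6.80 and 8.59 FPKM in wild-type libraries 1 to 5. Both the lowest and the highest value belonged to Tshr-/-, and the wild-type libraries lay between them. Means were 7.14 ± 2.13 FPKM in Tshr-/- and 8.31 ± 0.942 FPKM in wild type (log2 difference -0.26 ± 0.18 SE, 95% interval -0.66 to 0.15, limma adjusted p = 0.568). The deposited length of Chrm4 is 1440 bases, a multiple of 3, and its record starts 5060 bases downstream of the RefSeq start. Its level therefore rests on a short record with 203 to 396 reads per library, against 4246 to 7881 for Chrm1.

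Chrm2 (ENSMUSG00000045613, chromosome 6, 36388084 to 36528414 on the plus strand) encodes M2, the other Gi/o-coupled receptor, known in hippocampus from interneurons and from cholinergic terminals. Levels in Tshr-/- libraries 1 to 5 were 2.37, 3.74, 1.21, 1.26 and 1.38 FPKM, and those in wild-type libraries 1 to 5 were 1.28, 2.12, 1.38, 1.03 and 2.08 FPKM. The 4 thalamus-rich libraries held the 4 highest values, from 2.08 to 3.74 FPKM, and the other 6 libraries lay between 1.03 and 1.38 FPKM whatever their genotype. Mean Chrm2 was 1.99 ± 1.09 FPKM in Tshr-/- and 1.58 ± 0.496 FPKM in wild type, a log2 difference of 0.24 ± 0.31 (SE, 95% interval -0.46 to 0.93, limma adjusted p = 0.786). Without Tshr-/- library 2, the highest, this difference was -0.02.

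Chrnb2 (ENSMUSG00000027950, chromosome 3, 89746195 to 89764632 on the minus strand) encodes the beta2 subunit, which pairs with alpha subunits and forms no channel alone. It had 10.49, 13.5, 9.34, 8.58 and 8.66 FPKM in Tshr-/- libraries 1 to 5 and 9.24, 9.39, 9.06, 8.27 and 9.80 FPKM in wild-type libraries 1 to 5. Apart from Tshr-/- libraries 1 and 2, every library lay between 8.27 and 9.80 FPKM, and the 4 highest values were again those of the thalamus-rich libraries. The means of 10.1 ± 2.03 FPKM in Tshr-/- and 9.15 ± 0.563 FPKM in wild type differed by 0.12 ± 0.11 on the log2 scale (SE, 95% interval -0.13 to 0.38, limma adjusted p = 0.673). Chrnb2 overlaps the gene Adar on the opposite strand over 7252 bases, and the library kit named in the labels does not mark the strand, so reads there cannot be assigned by strand. Adar had 14.5 to 19.8 FPKM.

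Chrna4 (ENSMUSG00000027577, chromosome 2, 181018380 to 181043546 on the minus strand) encodes the alpha4 subunit and varied most of the 8 genes, 4.89-fold between its lowest and highest library. It had, in Tshr-/- libraries 1 to 5, 12.2, 13.6, 4.95, 2.77 and 9.46 FPKM, and, in wild-type libraries 1 to 5, 4.56, 7.36, 4.87, 2.78 and 7.34 FPKM. Tshr-/- libraries 1, 2 and 5 exceeded every wild-type library, while Tshr-/- library 4 and wild-type library 4 were the lowest and nearly equal. Tshr-/- library 5 was not thalamus-rich by the list mean (-0.51). It had the highest mean of the neocortex list, 0.50 above the mean of all libraries on the log2 scale. The lowest means of that list were in Tshr-/- library 4 (-0.32) and wild-type library 4 (-0.41). Tshr-/- library 5 was also next to Tshr-/- library 2 in the habenular markers Pou4f1 (0.657 FPKM) and Gpr151 (2.12 FPKM), picked after their values were seen. Whether either tissue bears on its Chrna4 level was not tested. The means were 8.58 ± 4.62 FPKM in Tshr-/- and 5.38 ± 1.97 FPKM in wild type, with a log2 difference of 0.53 ± 0.43 (SE, 95% interval -0.41 to 1.47, limma adjusted p = 0.624). Without Tshr-/- library 4 the difference was 0.88 (limma adjusted p = 0.316) and without Tshr-/- library 2 it was 0.31, and over 23 alternatives the adjusted p ran from 0.316 to 0.928.

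Because Chrna4 moved more than its partner, the balance of the 2 subunits also varied. The log2 ratio of Chrna4 to Chrnb2, both per length, was 0.21, 0.01, -0.92, -1.63 and 0.13 in Tshr-/- libraries 1 to 5 and -1.02, -0.35, -0.90, -1.57 and -0.42 in wild-type libraries 1 to 5. Chrna4 equalled or exceeded Chrnb2 in Tshr-/- libraries 1, 2 and 5 only, and the genotypes overlapped. The log2 ratio of the Gq-coupled receptors (Chrm1 and Chrm3 summed) to the Gi/o-coupled ones (Chrm2 and Chrm4 summed) averaged 2.11 ± 0.335 in Tshr-/- and 2.25 ± 0.309 in wild type. Both ratios are given as descriptions with no test.

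Chrna7 (ENSMUSG00000030525, chromosome 7, 63098692 to 63212569 on the minus strand) encodes the alpha7 subunit of the calcium-permeable receptor that needs no other subunit. It had 6.40, 5.82, 8.67, 7.66 and 6.48 FPKM in Tshr-/- libraries 1 to 5 and 7.44, 6.96, 7.51, 7.50 and 6.55 FPKM in wild-type libraries 1 to 5. The Tshr-/- libraries lay on both sides of a narrow wild-type range, with 2 above it and 3 below. Chrna7 averaged 7.0 ± 1.15 FPKM in Tshr-/- and 7.19 ± 0.424 FPKM in wild type (log2 difference -0.05 ± 0.10 SE, 95% interval -0.27 to 0.17, limma adjusted p = 0.864).

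Ache (ENSMUSG00000023328, chromosome 5, 137287519 to 137294466 on the plus strand) encodes acetylcholinesterase. Its values were 20.5, 27.4, 22.4, 18.7 and 21.4 FPKM in Tshr-/- libraries 1 to 5 and 19.7, 19.7, 20.3, 19.1 and 18.7 FPKM in wild-type libraries 1 to 5. Of the Tshr-/- libraries 4 exceeded every wild-type library and library 4 lay just below all of them, while the wild-type libraries ranged from 18.7 to 20.3 FPKM. The means of 22.1 ± 3.27 FPKM in Tshr-/- and 19.5 ± 0.613 FPKM in wild type differed by 0.16 ± 0.09 on the log2 scale (SE, 95% interval -0.03 to 0.36, limma adjusted p = 0.449). Without Tshr-/- library 2, the highest, the log2 difference was 0.08, and limma voom on the rebuilt reads gave 0.24 (unadjusted p = 0.023, adjusted p = 0.280). Voom divided by total rebuilt reads, which raises Tshr-/- relative to wild type compared with the library sizes behind FPKM. Over 23 alternatives the adjusted p ran from 0.280 to 0.811.

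Several of the 8 genes varied with the level of thalamic markers, which is given as a description, with no share of all genes that did so. With the mean of the thalamus and habenula list added to the model as a covariate, the residual SD of Chrm2 fell to 0.13 on the log2 scale, against 0.57 with genotype alone, and its level rose by 0.47 for each unit of the list. The same step gave a residual SD of 0.07 against 0.23 for Chrm1, 0.10 against 0.22 for Chrm3 and 0.10 against 0.20 for Chrnb2. Slopes were negative for Chrm1 (-0.19), Chrm3 (-0.17) and Chrna7 (-0.11) and positive for Chrnb2 (0.15) and Chrna4 (0.52). Chrm4 (0.32 against 0.33) and Ache (0.14 against 0.15) kept nearly the same residual SD. Of the genes whose promoter windows are printed, Chrna4 had the widest residual spread left. For Chrna4 it was 0.53 against 0.78, and 0.28 once the neocortex list was added as well, a step chosen after seeing the data. In bulk tissue, fewer cells of a type and less RNA per cell cannot be told apart.

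**Figure D2:**
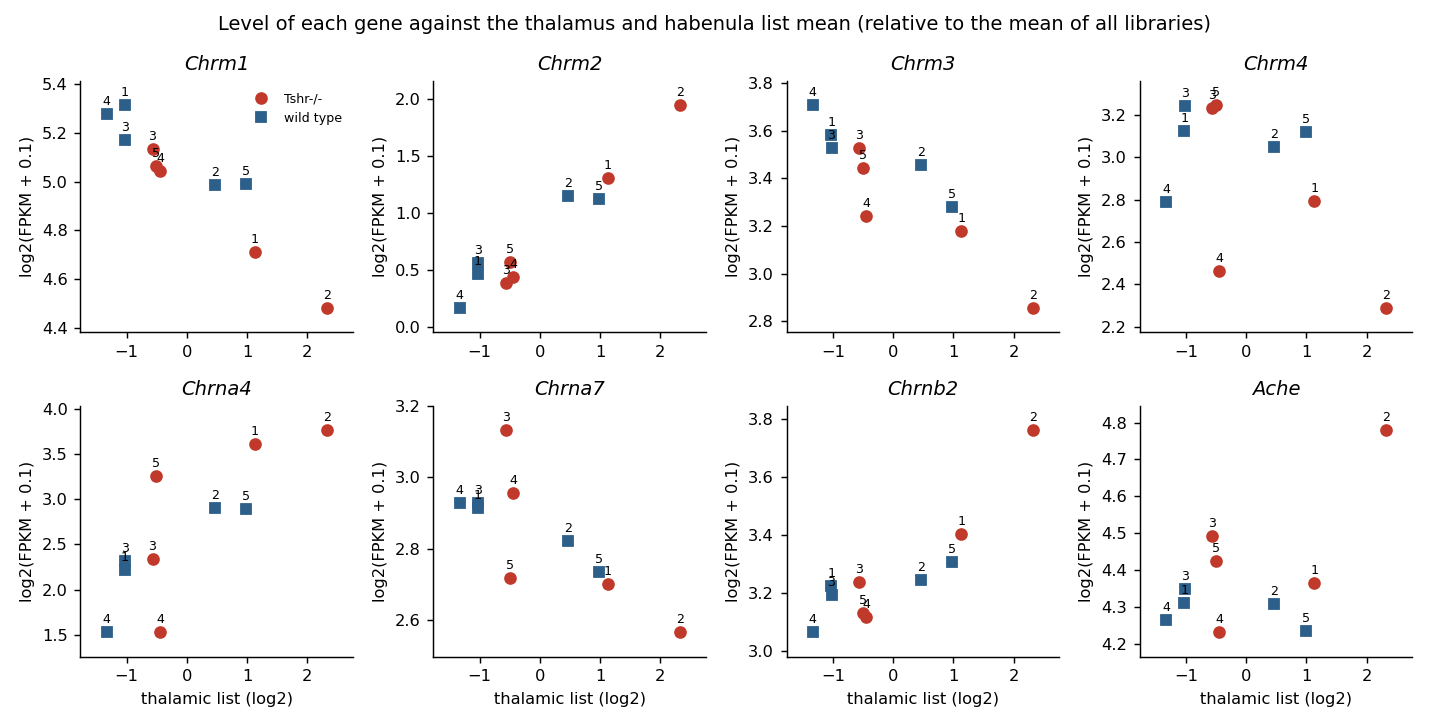
Log2(FPKM + 0.1) of each gene against the mean of the thalamus and habenula list in the same library (log2 units, relative to the mean of the 10 libraries), with Tshr-/- as red circles and wild type as blue squares; numbers are library numbers. Chrm2, Chrnb2 and Chrna4 rise with the list, at 0.47, 0.15 and 0.52 per unit, Chrm1, Chrm3 and Chrna7 fall with it, and Tshr-/- library 2 lies at the far right at 2.32.

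Genotype differences were smaller beside this covariate for each of the 8 genes. The log2 difference of Chrm1 was -0.12 ± 0.05 (SE, limma unadjusted p = 0.041, adjusted p = 0.375), that of Chrm3 was -0.13 ± 0.07 (adjusted p = 0.460), and that of Chrna4 was 0.13 ± 0.30 (adjusted p = 0.902). Chrm2 turned to -0.13 ± 0.10 (adjusted p = 0.654) and Chrna7 to 0.04 ± 0.08 (adjusted p = 0.885). Chrnb2 stood at 0.01 ± 0.07 (adjusted p = 0.973), Chrm4 at -0.16 ± 0.18 (adjusted p = 0.768) and Ache at 0.12 ± 0.09 (adjusted p = 0.622).

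The 6 libraries lowest in thalamic markers, a subset chosen after seeing the data, were also fitted alone. Chrm1 there had 35.0, 32.8 and 33.3 FPKM in Tshr-/- and 39.7, 35.9 and 38.7 FPKM in wild type, without overlap, as did 9.42% of 15482 genes in the same direction and 6.34% in the other. Its log2 difference was -0.17 ± 0.07 (SE, limma unadjusted p = 0.034, adjusted p = 0.481), and the adjusted p of Chrm1 ran from 0.270 to 0.689 over 23 alternatives. The thalamic list was still higher in these 3 Tshr-/- libraries than in these 3 wild-type libraries, so its share in the Chrm1 difference cannot be told apart from genotype here. The other 7 genes overlapped between genotypes in the subset, with log2 differences from -0.20 for Chrm3 to 0.35 for Chrna4, and none was called.

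**Figure D3:**
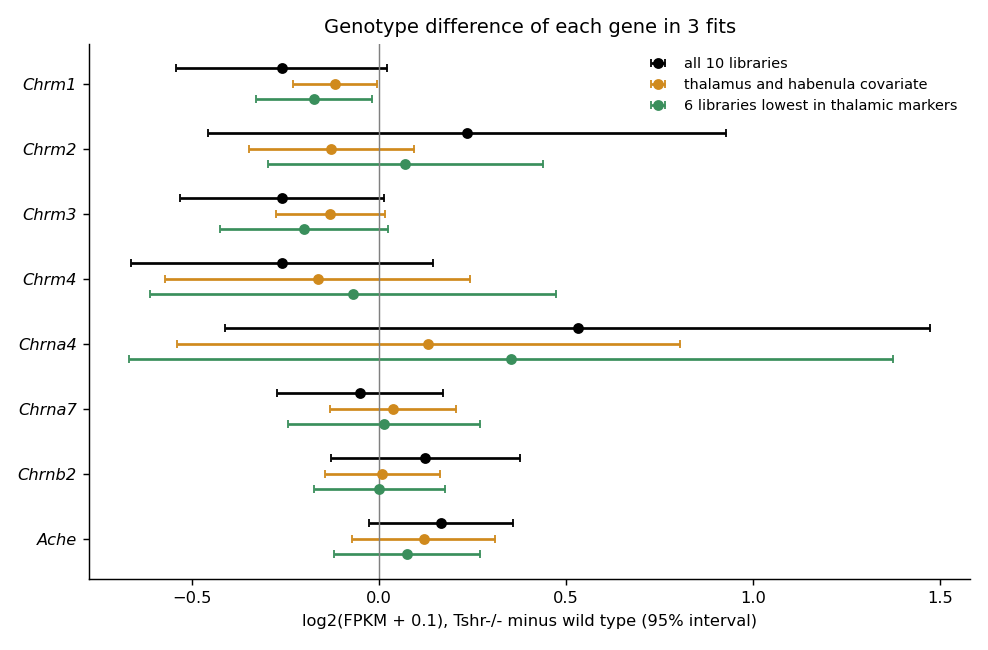
Log2 difference of each gene, Tshr-/- minus wild type, with its 95% interval, over all 10 libraries (black), with the thalamus and habenula list as a covariate (orange) and in the 6 libraries lowest in thalamic markers (green). The black intervals all include 0. Of the orange and green intervals, those of Chrm1 alone exclude 0 (-0.2308 to -0.0056 and -0.33 to -0.02), and Chrm1 was called in neither fit. The values of Chrna4 are 0.53, 0.13 and 0.35 in the 3 fits.

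Markers of other neurons and regions were described by their summed levels and the direction of their means, with no test of a list. All 10 dentate granule neuron markers and 9 of 10 CA1 markers had lower mean log2 values in Tshr-/-; the summed level was 87.8 to 134 FPKM in Tshr-/- against 140 to 193 FPKM in wild type for the dentate list, and 242 to 384 FPKM in Tshr-/- against 351 to 463 FPKM in wild type for the CA1 list. The dentate sums did not overlap and the CA1 sums did. C1ql2 weighed most in the dentate sums, with means of 44.4 FPKM in Tshr-/- and 77.8 FPKM in wild type. On the log2 list mean the genotypes overlapped for the dentate list too. Tshr-/- library 4 was at 0.10 there, above wild-type libraries 2 (0.065) and 5 (0.051). Of 12 interneuron markers 4 had a higher mean, and the sums were 400 to 656 FPKM in Tshr-/- and 574 to 651 FPKM in wild type. Their part in the levels of the muscarinic genes was not tested.

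To place each gene among all tested genes, those with the highest Pearson correlation to it over the 10 libraries were listed, as a description in which libraries of both genotypes and of unequal thalamic content are pooled. Chrm1 was most like Fam212b and Camk2a, the calcium-dependent kinase of excitatory synapses (r = 0.98 for each). Chrm2 was most like Akap12, a scaffold for protein kinase A, and Sgpp2 (0.99 for each), Chrm3 like Gpr85 and Gpc4 (0.96 for each), and Chrm4 like the delta opioid receptor gene Oprd1 (0.97) and Cmip (0.93). Chrna4 was most like Plcxd2 and the contactin gene Cntn6 (0.98 for each), Chrna7 like Gpr83 (0.95) and the adenylate kinase gene Ak5 (0.94), Chrnb2 like Gpld1 (0.97) and Sh3bgrl2 (0.96), and Ache like Sh2b2 (0.93) and Map4k2 (0.92). No gene among the 8 was in the first pair of another.

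Of 14 other muscarinic and nicotinic subunits, 5 passed the filter at 0.5 FPKM, and limma called 0 of them (1 lower at an unadjusted p below 0.05, none higher). That gene was Chrna5, an accessory subunit that joins receptors of Chrna4 and Chrnb2, at 1.48 ± 0.473 FPKM in Tshr-/- and 1.97 ± 0.241 FPKM in wild type (log2 difference -0.43 ± 0.18 SE, adjusted p = 0.358). Chrm5, which encodes the last muscarinic receptor, had 1.68 ± 0.721 FPKM in Tshr-/- and 1.62 ± 0.299 FPKM in wild type. The muscle-type subunits Chrna1 and Chrnb1 had 0.510 ± 0.122 and 0.845 ± 0.190 FPKM in Tshr-/-, against 0.567 ± 0.0941 and 0.891 ± 0.119 FPKM in wild type. Chrna2, known from a class of interneurons in stratum oriens, was under the filter at 0.298 ± 0.103 FPKM in Tshr-/- and 0.337 ± 0.0669 FPKM in wild type. Chrna6 lay between 0 and 0.362 FPKM in Tshr-/- and between 0 and 0.307 FPKM in wild type, and Chrne between 0.0855 and 0.243 FPKM in Tshr-/- and between 0.0352 and 0.155 FPKM in wild type. Chrna9, Chrna10 and Chrng had 3, 7 and 0 reads over the Tshr-/- libraries and 1, 3 and 1 over the wild-type libraries, and Chrnd had 0 reads in all 10, which allows up to 0.0271 to 0.0398 FPKM per library at 3 reads, counting error only.

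Chrna3, Chrnb3 and Chrnb4, subunits known from the medial habenula, were set apart by 1 library. Chrna3 had 0.246, 2.70, 0.462, 0.156 and 0.6997 FPKM in Tshr-/- libraries 1 to 5 and 0.211 to 0.452 FPKM in wild type (log2 difference 0.68 ± 0.56 SE, limma adjusted p = 0.630; without Tshr-/- library 2 its mean was under the filter). Chrnb4 had 0.0366, 2.06, 0.0306, 0.381 and 0.456 FPKM in Tshr-/- libraries 1 to 5 and 0.0117 to 0.0758 FPKM in wild type, and Chrnb3 had 0.805 FPKM in Tshr-/- library 2 and at most 0.318 FPKM in any other library. The same library was highest in Chat, Slc18a3 and Slc5a7, which serve synthesis and transport of acetylcholine. It was also highest in Acly (37.7 FPKM, next highest 35.8 FPKM) and Prima1 (2.47 FPKM, next highest 2.28 FPKM), but not in Slc44a1, Bche or Colq. Chat, which encodes choline acetyltransferase, had 69 reads (0.834 FPKM) there and 23 in the other 4 Tshr-/- libraries together, against 5 reads in all of wild type. The vesicular transporter gene Slc18a3 stood at 0.915 FPKM and the choline transporter gene Slc5a7 at 1.56 FPKM in Tshr-/- library 2, and at most at 0.120 and 0.258 FPKM in the other libraries. Pou4f1 and Gpr151, markers of habenular neurons picked after their values were seen, stood at 3.58 and 11.2 FPKM in Tshr-/- library 2, at 0.657 and 2.12 FPKM in Tshr-/- library 5, and at most at 0.115 and 0.762 FPKM elsewhere. Chat, Slc18a3 and Slc5a7 also belong to a list of 8 markers of septal cholinergic neurons, of which 1 reached 0.5 FPKM on average. That list summed to 4.13 FPKM in Tshr-/- library 2 and to at most 1.16 FPKM in any other library. Lhx8, a transcription factor that defines these neurons, was at most 0.0295 FPKM in any library. Whether the transcripts came from habenula or septum was not tested.

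**Figure D4:**
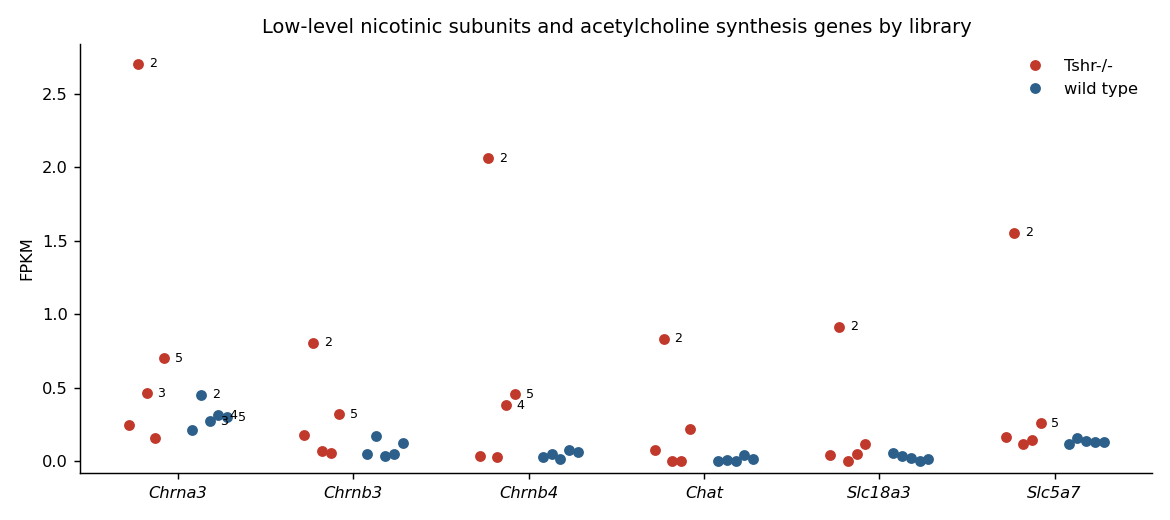
FPKM of the nicotinic subunit genes Chrna3, Chrnb3 and Chrnb4 and of the acetylcholine synthesis and transport genes Chat, Slc18a3 and Slc5a7 in each library, with Tshr-/- in red at the left and wild type in blue at the right of each gene; library numbers mark values above 0.25 FPKM. Tshr-/- library 2 is highest for all 6 genes, at 0.805 to 2.70 FPKM.

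No gene for handling of the transmitter was called. In the list of 8 genes for acetylcholine synthesis, transport and breakdown, 4 were tested, and 0 reached an unadjusted p below 0.05 by limma. Acly, which supplies acetyl-CoA, had 34.5 ± 2.83 FPKM in Tshr-/- and 32.5 ± 2.63 FPKM in wild type (adjusted p = 0.659). The choline transporter-like gene Slc44a1 had 10.46 ± 1.52 FPKM in Tshr-/- and 10.8 ± 1.14 FPKM in wild type (adjusted p = 0.855). Bche, the second cholinesterase, had 0.577 ± 0.131 FPKM in Tshr-/- and 0.545 ± 0.192 FPKM in wild type (adjusted p = 0.887). Prima1, the membrane anchor of acetylcholinesterase, had 1.95 ± 0.339 FPKM in Tshr-/- and 1.94 ± 0.339 FPKM in wild type (adjusted p = 0.983). Colq, which encodes a collagen-like anchor of the same enzyme, averaged 0.113 FPKM in Tshr-/- and 0.0761 FPKM in wild type, under the filter.

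Among genes that assemble or modulate nicotinic receptors, limma called 0 of 8 tested, and 2 were lower and 0 higher at an unadjusted p below 0.05, beside 8.38% lower and 4.65% higher of all tested genes. Lynx1, a membrane-bound protein that dampens nicotinic receptors, had 96.6, 101, 96.4, 96.9 and 79.9 FPKM in Tshr-/- libraries 1 to 5, against 122, 125, 125, 115 and 110 FPKM in wild-type libraries 1 to 5. The genotypes did not overlap. The log2 difference was -0.34 ± 0.07 (SE, limma unadjusted p = 0.00046, adjusted p = 0.130), and the adjusted p ran from 0.0612 to 0.367 over 23 alternatives. Ly6e had 34.6 ± 3.63 FPKM in Tshr-/- and 38.8 ± 2.58 FPKM in wild type (adjusted p = 0.379), Lypd6 had 5.08 ± 0.766 FPKM in Tshr-/- and 4.48 ± 0.305 FPKM in wild type (adjusted p = 0.502), and Lypd6b had 3.12 ± 1.32 FPKM in Tshr-/- and 2.17 ± 0.159 FPKM in wild type (adjusted p = 0.571).

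Downstream of the Gq-coupled receptors, 14 of 16 tested genes had a lower and 2 a higher mean log2 value in Tshr-/-, beside 8244 lower of the 15471 tested genes, with a median difference of -0.14 beside -0.01 over all tested genes. Limma called 0 of them, and 4 were lower and 0 higher at an unadjusted p below 0.05, against 8.38% of all tested genes lower. Itpr1, the calcium release channel opened by inositol trisphosphate, had 23.5, 19.4, 22.4, 18.2 and 22.3 FPKM in Tshr-/- libraries 1 to 5 and 27.4, 26.8, 28.0, 28.5 and 28.3 FPKM in wild-type libraries 1 to 5. Every Tshr-/- library lay below every wild-type library, with a log2 difference of -0.40 ± 0.07 (SE, limma unadjusted p = 0.00016, adjusted p = 0.084, from 0.0536 to 0.363 over 23 alternatives). Kcnq3, a potassium channel subunit, had 14.3 ± 1.71 FPKM in Tshr-/- and 17.2 ± 1.178 FPKM in wild type (adjusted p = 0.240). Gnaq, the Gq alpha subunit, had 45.9 ± 3.09 FPKM in Tshr-/- and 51.4 ± 2.29 FPKM in wild type (adjusted p = 0.269).

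Downstream of the Gi/o-coupled receptors, 14 of 19 genes had a lower mean log2 value in Tshr-/-, beside 8244 of the 15471 tested genes, with a median of -0.03, and limma called 0 of them. At an unadjusted p below 0.05, 1 was higher and 2 were lower, beside 4.65% higher and 8.38% lower of all tested genes. Grk3, a receptor kinase, had 14.9 ± 1.81 FPKM in Tshr-/- and 12.3 ± 0.232 FPKM in wild type (log2 difference 0.27 ± 0.08 SE, adjusted p = 0.225). Kcnj6, a subunit of the potassium channel that these receptors open, had 8.36 ± 1.13 FPKM in Tshr-/- and 10.02 ± 0.971 FPKM in wild type (adjusted p = 0.301). The kinase gene Grk2 had 45.4 ± 4.27 FPKM in Tshr-/- and 51.1 ± 4.04 FPKM in wild type (adjusted p = 0.363). Adcy1, a calcium-stimulated adenylyl cyclase, had 110.5 ± 14.5 FPKM in Tshr-/- and 123 ± 11.9 FPKM in wild type (adjusted p = 0.518). Of the 52 tested genes in the 5 lists, Lynx1 and Itpr1 were the 2 whose genotypes did not overlap (3.85%), beside 2.68% of all tested genes.

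**Figure D5:**
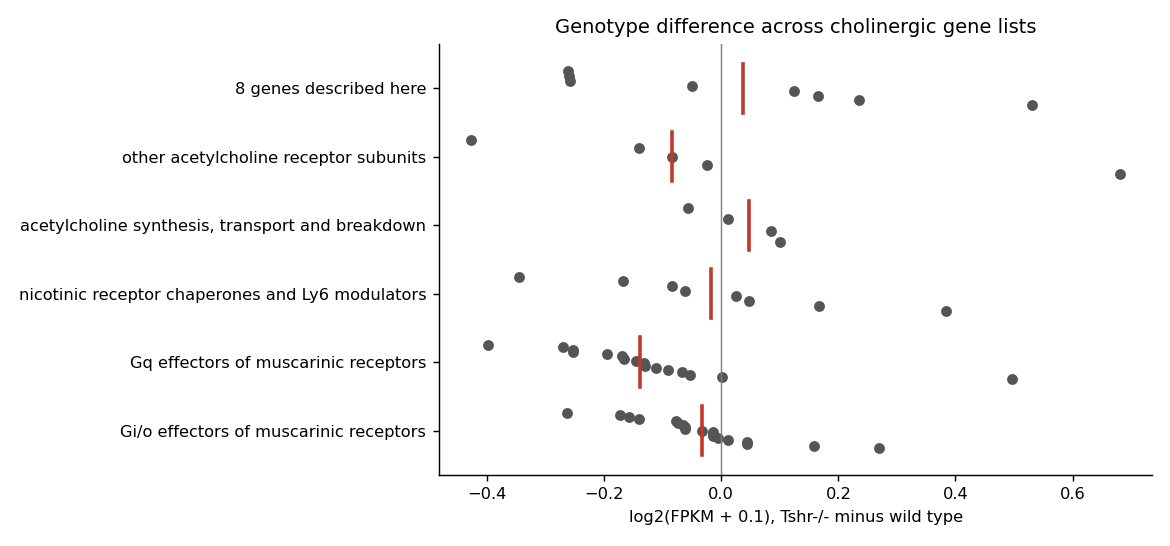
Log2 difference, Tshr-/- minus wild type, of each tested gene (points) among the 8 receptor and acetylcholinesterase genes and in 5 lists of related genes, with the median of each as a red bar. Medians run from -0.14 for the Gq effectors to 0.05 for acetylcholine synthesis, transport and breakdown, and no gene shown was called.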

How the data were processed

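Hippocampal RNA of 5 Tshr-/- and 5 wild-type libraries was sequenced. The authors deposited 1 table of FPKM values for 52636 genes. Per the submitters' processing notes, HISAT2 2.0.5, featureCounts 1.5.0-p3 and the mm10 genome were used. The sources used here do not give the annotation release. The kit named in the labels' protocols keeps no strand information.

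From FPKM and gene length, read numbers could be rebuilt (100% of values above 0 came out whole within 0.01 read), 25744854 to 28332278 per Tshr-/- library and 23899650 to 33529811 per wild-type library. The library size behind FPKM was 1.0007 to 1.058 times the rebuilt reads in Tshr-/- and 0.946 to 1.003 times in wild type. Limma voom used the rebuilt totals instead, which puts Tshr-/- higher relative to wild type than FPKM does. Limma 3.58.1 in R 4.3.3 was fitted over all genes on log2(FPKM + 0.1), with moderated variances that follow the mean level. Differences on this scale understate the change of low genes. P-values measure the spread between these libraries, which may be partly technical.

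Simulated reads over 15345 genes were put through the same steps. Calls were made for 21 of 47 genes with a simulated 1.3-fold change and 27 of 49 with 1.5-fold. They were made for 46 of 50 with 2-fold and 47 of 48 with 3-fold. Of all 153 calls, 12 were false. In the deposited libraries limma called 2 genes, and Itpr1 at an unadjusted p of 0.00016 was not called. The SE of the log2 difference was 0.43 for Chrna4 and 0.31 for Chrm2. The simulated shares therefore do not give the chance of a call for the genes described here.

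The 8 genes and all lists were chosen with earlier results of these data known. Named genes are the 8, the other receptor subunits, the 4 smallest p-values in each other list, the 2 most alike genes for each of the 8, called genes, Zic1, Tcf7l2, Ttr and Tshr. One gene that this rule names is not reported here. Untested synthesis genes (Chat, Slc18a3, Slc5a7, Colq) and Pou4f1 and Gpr151 were named after their values were seen. Alternatives were pseudocounts of 1 and 0.01, the filter dropped or set at 1 FPKM, scaling by median ratios or quantiles, variances without the trend, protein-coding genes alone, the replicate block, a thalamic covariate, limma voom on total rebuilt reads, and each library left out. Chosen after seeing the data were a neocortex covariate beside the thalamic one and the 6 libraries lowest in thalamic markers.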

Additional observations from a re-analysis of the deposited data

Results flagged for a closer look

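Single libraries that stood far from the other 4 of their genotype were found by Dixon's test at the 95% level, which chance passes in about 1 of 20 groups. None of the 8 acetylcholine receptor and acetylcholinesterase genes had such a library. In Tshr-/- the highest library stood apart for Chrna3 (2.70 FPKM), Chrnb4 (2.06 FPKM), Chrne (0.243 FPKM), Chrna10 (0.0853 FPKM), Cyp26b1 (2.41 FPKM) and Ttr (2189 FPKM), and the lowest stood apart for Lynx1 (79.9 FPKM). In wild type the only library with a read stood apart for Chrna9 (0.00983 FPKM) and Chrng (0.00784 FPKM). A gene with reads in 1 library only passes this test by construction, so these flags carry no information. Chrna10 had 7 reads over all Tshr-/- libraries and is near the floor as well.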

How the results depend on the processing

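Across 23 alternatives, 176 of 184 differences of the 8 genes kept their direction and their side of the threshold, 8 turned, and 0 were called; the cause of each turn was not tested. With the thalamic covariate the log2 differences that turned were Chrm2 (-0.13), Chrna7 (0.037), Bche (-0.068), Prima1 (-0.065) and Tcf7l2 (-0.58). With the neocortex covariate beside it they were Chrm2 (-0.14), Chrna7 (0.048), Bche (-0.077), Prima1 (-0.065) and Tcf7l2 (-0.58). Tcf7l2 is itself part of the thalamic list that makes the covariate, so its turn in both fits is circular. In the 6 libraries lowest in thalamic markers they were Chrna7 (0.012), Chrnb1 (0.022) and Prima1 (-0.092). With limma voom they were Chrna7 (0.017), Chrm5 (0.040) and Slc44a1 (0.013), with quantile normalization Bche (-0.019) and Prima1 (-0.040), and with a pseudocount of 1 Chrm5 (0.0025). Voom used total rebuilt reads in place of the library sizes behind FPKM, and its log2 difference was higher for each of the 8 genes. Leaving out 1 library gave log2 differences of -0.017 to 0.37 for Chrm2, -0.13 to 0.012 for Chrna7, -0.19 to 0.16 for Chrm5, -0.11 to 0.015 for Slc44a1, -0.029 to 0.22 for Bche, -0.074 to 0.080 for Prima1 and -0.065 to 1.06 for Tcf7l2. Of all genes, 2 were called; the count was 14 with a pseudocount of 0.01, 4 with no filter, 13 with a filter at 1 FPKM, 13 with median-ratio scaling, 4 with quantile normalization, 1 without the variance trend, 17 among protein-coding genes, 6 with the thalamic covariate, 23 with both covariates, 9 with limma voom, and 0 to 9 with 1 library left out. Under these 23 settings Penk lost its call in 4 and Cyp26b1 in 10, with no change of direction. Deviations of same-numbered libraries correlated weakly, at -0.06, 0.30, 0.08, 0.17 and -0.07 for numbers 1 to 5. The replicate block called 3 genes, none of them among the 8 described. In that fit limma gave Chrna4 a log2 difference of 0.53 ± 0.21 (SE, unadjusted p = 0.038, adjusted p = 0.329). Without the block, limma gave it an SE of 0.43 and an unadjusted p of 0.241. Chrm1 with the block had a log2 difference of -0.26 ± 0.11 (SE, limma unadjusted p = 0.045, adjusted p = 0.346). Reads limit Chrm2 (154 to 667 per library) and Chrm4 (203 to 396) most.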
